A study of Mus musculus with 165 samples.

Results

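The 32 genes described here respond to low oxygen in many cell types and lie outside the core enzymes of glycolysis. They were taken by symbol from a table of normalized read counts with 36255 genes, and all 32 symbols were found: Hif1a, Egln1, Egln3, Vegfa, Adm, Stc2, Slc2a1, Slc2a3, Slc16a3, Aldoc, Pfkfb3, Pfkfb4, Pgm2, Gbe1, Bnip3, Bnip3l, Higd1a, Fam162a, Ak4, Pdk1, Car9, P4ha1, P4ha2, Hilpda, Mxi1, Kdm3a, Bhlhe40, Rora, Ndrg1, Ddit4, Ankrd37 and Narf. The set was named from known biology and not from the values in this table, but with earlier results of these data known. All 32 passed the filter on low values, with at least 1 library at 5 normalized counts or more, which left 17439 genes to test. Slc2a3, the gene for the glucose transporter GLUT3, passed it only just, with 6.96 normalized counts in its highest library, and its changes cannot be resolved at this depth.

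The cells were PUER, a line of mouse blood progenitors without a functional gene for PU.1 (Spi1-/-), which the labels trace to bone marrow and the study to fetal liver. They carry a fusion of PU.1 with the hormone-binding part of the estrogen receptor, which 4-hydroxytamoxifen (OHT) switches on. All libraries came from this one line, which limits it as a model of myeloid cells. Undifferentiated PUER cells grew in interleukin 3 (IL3) without OHT and gave 3 libraries. For differentiation in IL3, 200 nM OHT was added, and 27 time points from 1h to 168h gave 81 libraries. For differentiation in granulocyte colony-stimulating factor (GCSF), cells spent 48 h in GCSF in place of IL3 before OHT (3 libraries, called GCSF 0h). Then 100 nM OHT was added, with 78 libraries over the same 27 time points. GCSF-OHT 96h, 112h and 152h had 2 libraries each, and every other condition and time point had 3. Part of the medium was replaced, with OHT, at 40h, 88h and 136h, so that 48h, 96h and 144h were the next time points, 8 h later. Whether cells of 40h, 88h and 136h were collected before or after the change is not given in the sources used here. Cells of time points after 24h were detached with trypsin. In comparisons of late points with the start, trypsin and time cannot be told apart. Each time point was grown in a plate of its own, so that time point and plate cannot be told apart, and cytokine, OHT dose and pre-treatment cannot be told apart either. The study's methods call the replicates biological, the labels do not say more of them, and p-values measure the spread between these samples.

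In the hypoxia response, prolyl hydroxylases use oxygen to mark the alpha subunit of hypoxia-inducible factor (HIF) for destruction by the VHL ubiquitin ligase. When oxygen is scarce, or when the hydroxylases are inhibited in other ways, HIF-alpha protein accumulates, pairs with ARNT and binds the short DNA motif ACGTG in hypoxia response elements. Its targets promote glucose uptake, divert pyruvate from mitochondria, remove damaged mitochondria by mitophagy, and signal to blood vessels. HIF-1alpha is controlled mainly as a protein, so that the level of Hif1a mRNA need not follow its activity. Neutrophils and macrophages rely on glycolysis and work in tissues poor in oxygen, and HIF activity has been studied widely in both.

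To show the motif in its context, 250 bases before the annotated start are printed for P4ha2, Bnip3 and Fam162a, chosen as those with the lowest mean change among the 14 genes called lower at all 3 of IL3 96h, GCSF 96h and GCSF 72h, with 1 annotated start and the motif before it, and for Hif1a, which was not called at any of them. The sequences are those of RefSeq on GRCm38.p6, written 5′ to 3′ on the strand of the gene, with ACGTG or its reverse complement CACGT in capitals. P4ha2 lies on chromosome 11, plus strand (chr11:54100674-54100923). Bnip3 lies on chromosome 7, minus strand (chr7:138909507-138909756). Fam162a lies on chromosome 16, minus strand (chr16:36071562-36071811). Hif1a lies on chromosome 12, plus strand (chr12:73907617-73907866).
P4ha2: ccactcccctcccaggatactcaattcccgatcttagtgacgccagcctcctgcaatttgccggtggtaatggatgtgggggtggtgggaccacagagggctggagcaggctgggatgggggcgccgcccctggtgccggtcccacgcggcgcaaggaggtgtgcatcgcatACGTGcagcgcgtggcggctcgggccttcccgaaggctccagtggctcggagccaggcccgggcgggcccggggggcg
Bnip3: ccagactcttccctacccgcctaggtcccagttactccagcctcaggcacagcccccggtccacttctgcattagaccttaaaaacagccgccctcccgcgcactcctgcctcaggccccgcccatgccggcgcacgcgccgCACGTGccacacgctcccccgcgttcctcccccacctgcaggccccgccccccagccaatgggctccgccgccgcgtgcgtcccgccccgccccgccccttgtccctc
Fam162a: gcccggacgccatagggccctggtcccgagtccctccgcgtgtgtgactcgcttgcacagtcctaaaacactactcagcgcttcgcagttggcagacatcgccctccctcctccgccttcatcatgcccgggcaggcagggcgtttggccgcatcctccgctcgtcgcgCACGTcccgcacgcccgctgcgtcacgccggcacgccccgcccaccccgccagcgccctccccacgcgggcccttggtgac
Hif1a: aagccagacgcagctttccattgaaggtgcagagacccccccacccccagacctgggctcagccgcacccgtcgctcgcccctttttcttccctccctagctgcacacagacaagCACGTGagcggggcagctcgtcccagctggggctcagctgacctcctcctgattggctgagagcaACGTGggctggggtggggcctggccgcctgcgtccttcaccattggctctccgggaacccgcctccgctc
The Bnip3 window holds CACGTG, a palindrome that counts on both strands. The match in P4ha2 begins 78 bases before the start and that in Fam162a 81 bases before it. Hif1a has a CACGTG and, 70 bases before the start, a separate ACGTG. Over windows from 250 bases before to 50 after each start, 28 of the 32 members had an entry, and 21 of these 28 (75%) held ACGTG on either strand, against 27.6% of the 11660 tested genes with an entry and 19.6% of all 32851 windows. The 7 without it were Adm, Kdm3a, Pfkfb4, Pdk1, Stc2, Gbe1 and Narf. The related sequence GCGTG was also held by 21 of the 28 (75%), against 51.7% of tested genes with an entry, and only Gbe1 lacked both. Bnip3l, Ndrg1, Bhlhe40 and Slc2a3 had no entry. A match of 5 letters describes the sequence and is not evidence of binding.

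Libraries held 14600246 to 33147945 reads on genes (median 21960878), and a count of 3 reads, taken as the least that can be told from 0, was worth 1.96 to 5.51 normalized counts. No pair of replicates agreed within sampling noise. The neutrophil genes Elane, Lcn2, S100a8 and S100a9 were abundant at the start and at 160h in both cytokines. Ltf averaged only 8.07 normalized counts in undifferentiated cells and 4.24 in GCSF 0h. The macrophage marker Adgre1 averaged 8.65 in undifferentiated cells, 352 at IL3 160h and 412 at GCSF 160h. Ccr2, Itgam and Mmp12 were also higher at 160h in both cytokines than in undifferentiated cells. Other macrophage and monocyte genes differed: at IL3 160h F13a1 was lower (587.5 to 391) and Csf1r similar (8.63 and 9.16). Cd68 was lower at GCSF 160h, and Ms4a7 was at 0. The globin genes Hba-a1 and Hbb-bs and the lymphocyte gene Ms4a1 were at 0 in all these groups, but the erythroid gene Klf1 and the lymphoid gene Nkg7 were not.

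Across the time courses most of the genes moved together (heat map of members by time). In IL3 they stood at an intermediate level, dropped within 4 h of OHT, recovered by 12h and then climbed, and in GCSF they started low and were raised between 4h and 12h. In both cytokines the climb was broken at single late time points, at which the genes stood lower than 8 h before and 8 h after. Tested over time with limma, a linear model with moderated variances, all 32 genes were called in IL3 and 30 in GCSF. Slc2a3 is among both, although its largest change in IL3 was 1.28 on the log2 scale with limma and -3.38 with edgeR, and its IL3 call was lost without the first replicates. A gene counts as called where its Benjamini-Hochberg adjusted p is under 0.05 and its log2 fold change is over 0.58 in either direction, here at its largest change from the start. The same test called 70.3% of all genes in IL3 and 47.5% in GCSF, so that change over time was common among all genes. The 2 not called in GCSF were Pfkfb4, a fructose-2,6-bisphosphate enzyme, and Pgm2, a phosphoglucomutase. As a description over the 56 group means, which share plates, medium changes and the start of each course, Vegfa (r = 0.98), Egln1 (0.98), Egln3 (0.96), Slc2a1 (0.96) and Bnip3 (0.95) followed the mean of the other members most closely. Hif1a (r = -0.38), Slc16a3 (-0.41) and Pfkfb3 (-0.21) did not. Pfkfb4 was at 0.20 over both courses together, but at 0.94 within IL3 and 0.71 within GCSF.

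**Figure D1:**
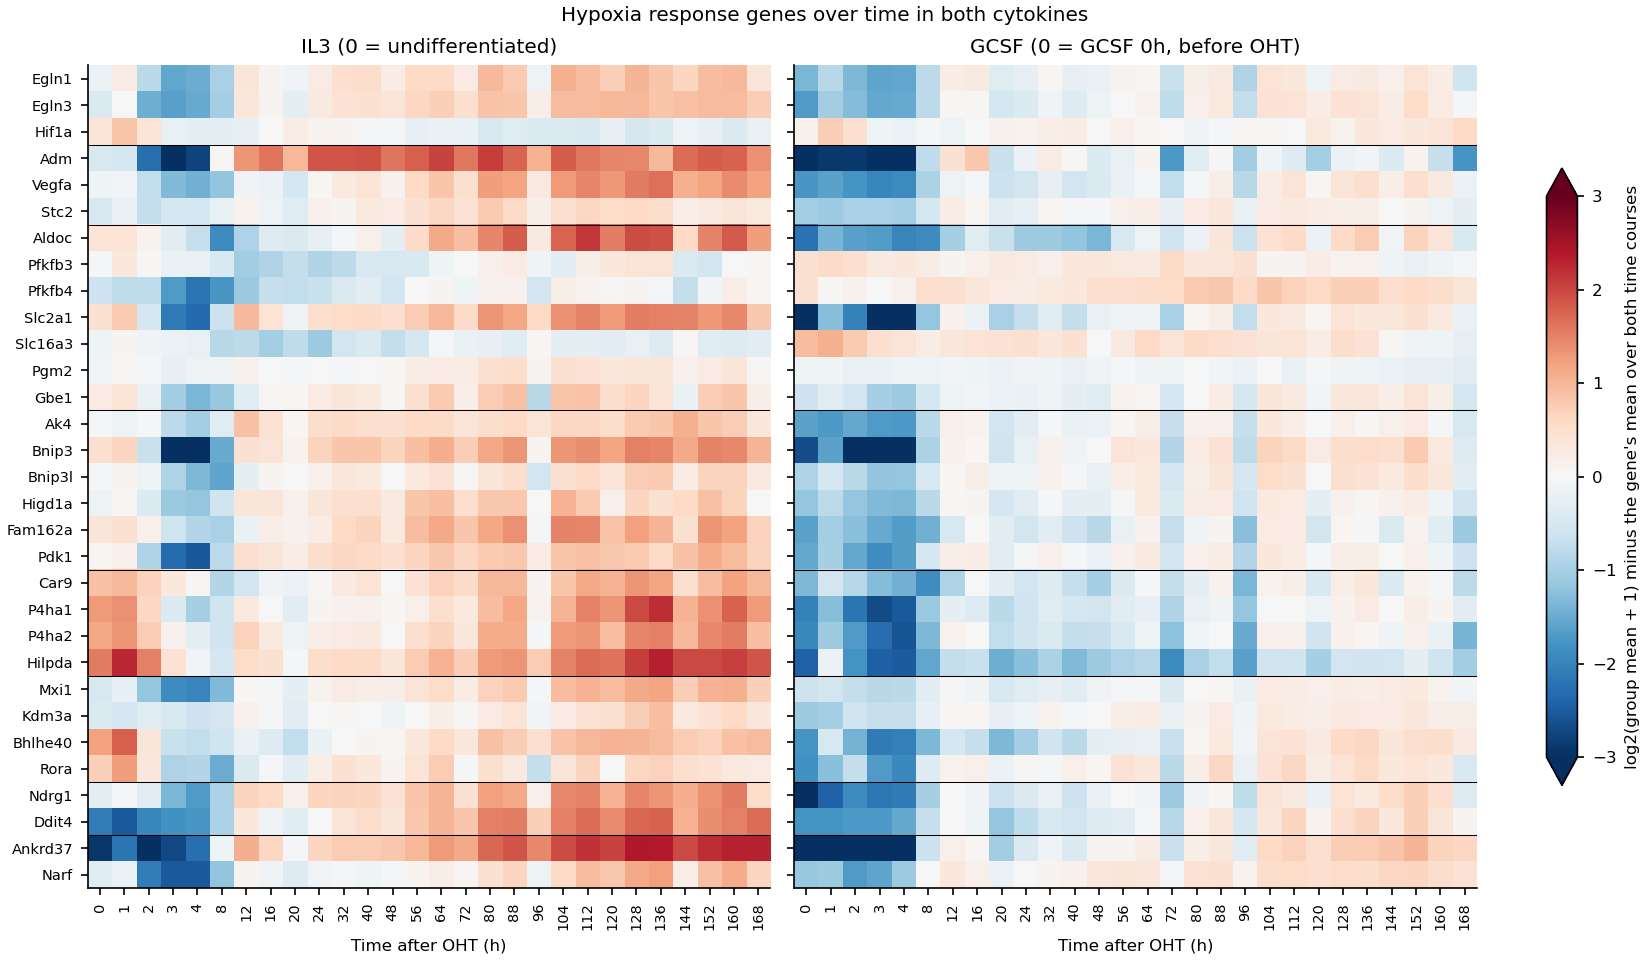
Level of each gene (rows, grouped by role, Slc2a3 left out) at each time after OHT (columns, h) in IL3 and GCSF, as log2(group mean + 1) minus the gene's mean over both courses. Columns are blue across most rows at 3h, 4h and 8h in IL3, and from 0h to 8h and at 72h and 96h in GCSF, and the IL3 column at 96h is paler than those at 88h and 104h.

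The first comparison set GCSF 0h against undifferentiated cells, before OHT. GCSF replaced IL3 after washing, so that the gain of GCSF, the loss of IL3 and the handling of the cells cannot be told apart. After 48 h in GCSF, 23 of the 32 genes were lower than in undifferentiated cells and 2 were higher, while 20.6% and 13.0% of all genes were called lower and higher. The median log2 fold change was -1.41 for the members and -0.09 for all tested genes. Slc2a1, which encodes the glucose transporter GLUT1, had 15582, 15493 and 15096 normalized counts in the undifferentiated libraries and 1219, 1147 and 1064 in GCSF 0h, a log2 fold change of -3.75 ± 0.16 (SE, adjusted p = 4.8e-44). Every GCSF library was far below every undifferentiated one. Bnip3, a mitophagy receptor on the outer mitochondrial membrane, fell from 10888, 11448 and 11839.6 to 1411, 1335 and 1131 (log2 fold change -3.14 ± 0.18 SE, adjusted p = 6.5e-34). Vegfa, the angiogenic growth factor, fell from 13774, 13240.5 and 13323 to 4765, 4402 and 4031 (log2 fold change -1.61 ± 0.13 SE, adjusted p = 3.8e-22). The groups did not overlap for either gene.

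Among the other genes that were lower after GCSF, Hilpda, which inhibits lipolysis at lipid droplets, changed by -3.99 ± 0.17 on the log2 scale, Ndrg1, a stress-induced differentiation gene, by -3.65 ± 0.13, and P4ha1 and P4ha2, the catalytic subunits of collagen prolyl hydroxylase, by -3.31 ± 0.11 and -3.13 ± 0.16. Ankrd37, an ankyrin repeat gene, had 92.8 ± 14.4 (SD, n = 3) counts before and 9.44 ± 1.00 (SD, n = 3) after. Adm, the vasodilator adrenomedullin, had 30.1, 30.7 and 18.9 counts in undifferentiated cells, and only 1 GCSF 0h library held any read of it. The oxygen sensors Egln1 (PHD2) and Egln3 (PHD3) were lower by -1.21 ± 0.13 and -1.27 ± 0.13. Hif1a was not called, with 4859.6, 5303 and 5484 counts in undifferentiated cells and 4529, 4247 and 4374 in GCSF 0h. Slc16a3, the lactate exporter MCT4, and Pfkfb4 were higher, by 1.06 ± 0.20 and 1.07 ± 0.09. Of the other gene lists, core glycolysis had 13 of 16 tested genes lower, led by Pgk1 (-2.03 ± 0.11), and the immediate early and heat shock list had 11 of 11 lower. Cell cycle genes were higher in 9 of 10, and their part in the result was not tested.

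After OHT in IL3, 24 of 32 genes were lower at 4h than in undifferentiated cells, against 13.4% of all genes (dot plot of the first hours). In the first hour 0 members were called lower (1.62% of all genes) and 1, Hilpda, higher (2.80%). The median log2 fold change there was 0.18, with 27 of 32 above 0. The fall came later: 15 genes fell between 1h and 2h (8.83% of all genes) and 19 between 2h and 3h (5.33%). Bnip3 had 13283, 12849 and 12119 counts at 1h and 892, 679 and 586 at 4h, which was -4.0 ± 0.18 (SE, adjusted p = 1e-42) from the start on the log2 scale. Pdk1, the kinase that shuts pyruvate out of mitochondria, fell from 2651, 2799 and 2753 to 535, 383 and 441 (log2 fold change -2.60 ± 0.12 SE, adjusted p = 2e-41). Every 4h library of both genes lay far below every undifferentiated one.

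The log2 fold change at 4h was -2.84 ± 0.16 (SE, adjusted p = 5.2e-33) for Slc2a1, -2.28 ± 0.11 for P4ha1 and -1.67 ± 0.17 for Hilpda. Adm fell from 30.1, 30.7 and 18.9 counts to 9.28, 4.33 and 0, near the limit of 3 reads. Narf, whose product binds nuclear prelamin A, was at -2.20 ± 0.09, and Bhlhe40, a circadian and hypoxia-linked repressor, at -1.97 ± 0.13. Egln1, Egln3 and Vegfa were at -1.31 ± 0.13, -1.09 ± 0.13 and -1.31 ± 0.13, and Hif1a fell as well, at -0.65 ± 0.07 (SE, adjusted p = 8.4e-14). Ddit4, an inhibitor of mTORC1 signalling that is also induced by stress, was not called, with 2338, 2309.6 and 2308 counts at the start and 4163, 2415 and 2273 at 4h, and the first of the 4h libraries stood apart for Ddit4, Ankrd37 and Slc2a1.

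In GCSF the genes were already low, and 14 of 32 rose in the first hour (4.02% of all genes), among them Slc2a1, from 1219, 1147 and 1064 to 4505, 4787 and 4552 counts, and Hilpda, from 282, 262 and 219.9 to 1208, 1240.2 and 1188. By 4h Slc2a1 was back at 1130.0, 1119 and 1246. At 4h 2 genes were lower than in GCSF 0h, Bnip3 (log2 fold change -1.22 ± 0.18 SE, adjusted p = 6.5e-09) and P4ha2 (-0.60 ± 0.16, a call lost without the first or the second replicates), and 2 were higher, Ankrd37 (2.45 ± 0.28) and Ndrg1 (1.82 ± 0.13). The shares of all genes were 2.42% lower and 3.20% higher. The 4h effect was tested against that in IL3, and for 24 of 32 genes the IL3 effect was the lower one (9.44% of all genes).

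From 4h to 12h the genes came back in both cytokines. In IL3 23 rose and 2 fell, the latter Pfkfb3 (-0.81 ± 0.06) and Slc16a3 (-0.59 ± 0.20, not called without the second replicates), against 9.80% and 10.3% of all genes. In GCSF 25 rose (6.34% of all genes). Bnip3 rose to 11642, 10329.8 and 11466 in IL3 (log2 fold change 3.97 ± 0.18 SE, adjusted p = 4.6e-42) and to 11496, 10645 and 4627 in GCSF (log2 fold change 3.90 ± 0.18 SE, adjusted p = 2.8e-40). The third GCSF library at 12h was far below the other two for Bnip3, and also the lowest for Slc2a1, Vegfa, Egln1 and Ddit4, yet for all 5 genes it was above every 4h library. Adm, from counts near 0, rose by 4.66 ± 0.44 in IL3 and 4.53 ± 0.44 in GCSF, Slc2a1 by 3.35 ± 0.16 and 3.32 ± 0.16, Ankrd37 by 3.86 ± 0.28 and 3.69 ± 0.28, and Vegfa by 1.34 ± 0.13 and 1.72 ± 0.13. Egln1 rose by 1.85 ± 0.13 and 1.72 ± 0.13 and Egln3 by 1.86 ± 0.13 and 1.47 ± 0.13. Pdk1 (3.05 ± 0.12), Narf (2.65 ± 0.09), Ndrg1 (2.36 ± 0.13) and Ddit4 (2.10 ± 0.16) were next in IL3, and P4ha2 (2.58 ± 0.16), P4ha1 (2.20 ± 0.11), Ndrg1 (2.08 ± 0.13) and Rora (2.07 ± 0.27) in GCSF. Hif1a was not called, at 0.02 ± 0.07 and 0.04 ± 0.07. Of the core glycolysis list 10 of 16 genes rose in IL3 and 12 in GCSF, led in both by Pfkl (2.89 ± 0.13 and 2.49 ± 0.13).

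**Figure D2:**
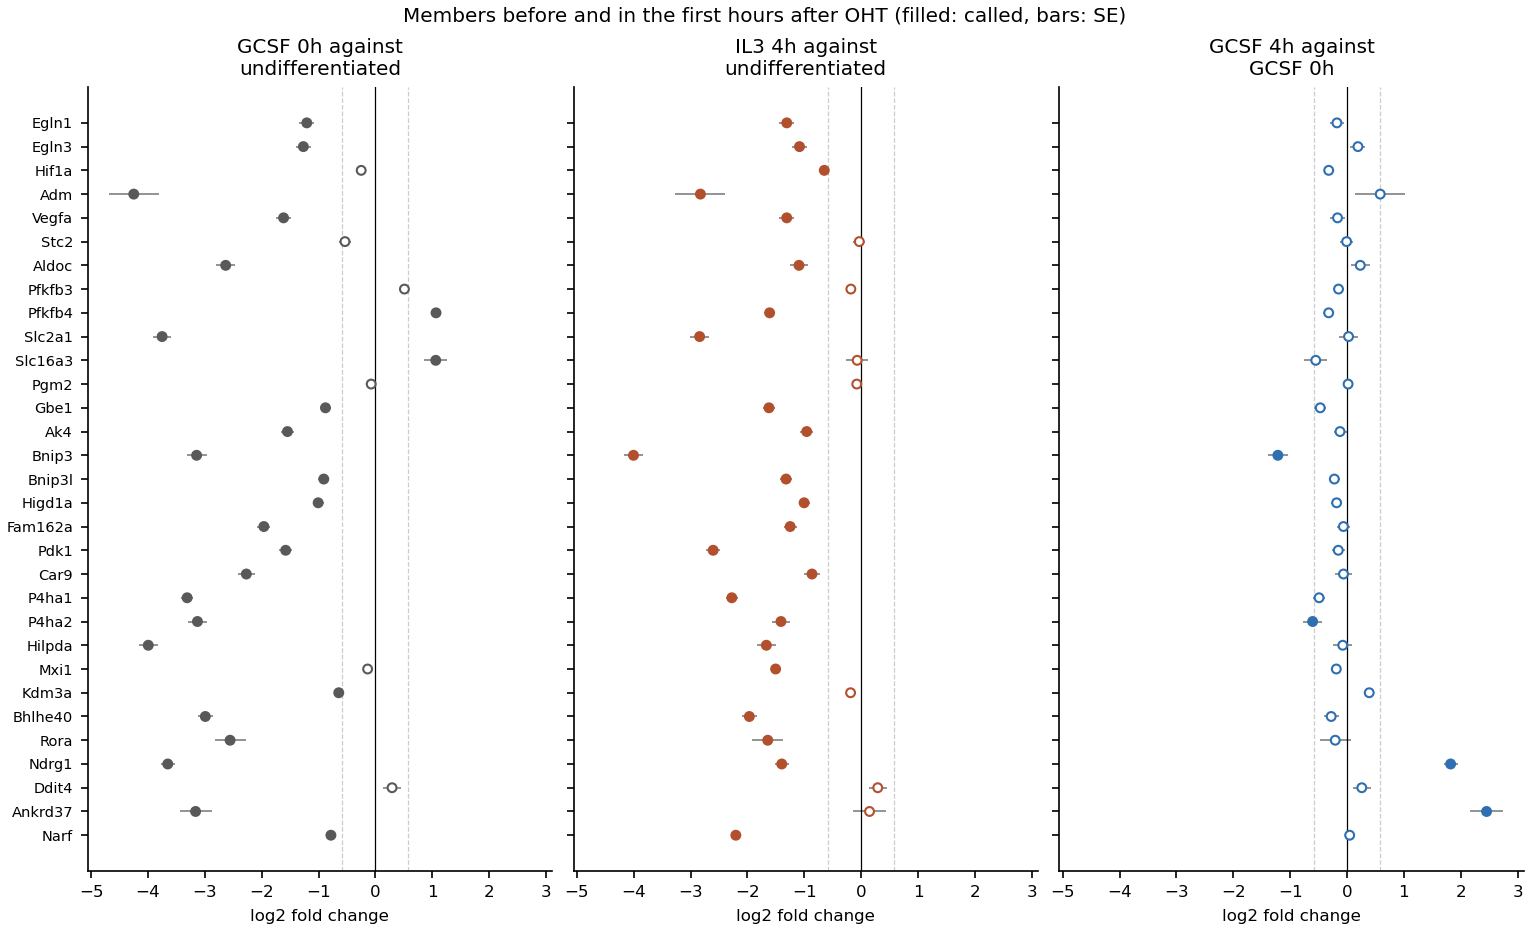
log2 fold change (horizontal axis) with its SE for each gene in GCSF 0h against undifferentiated cells and at 4h after OHT against the start of each course; filled points were called and dashed lines mark 0.58. Most points lie left of 0 in the first and second panels, and in the third only Bnip3 and P4ha2 were called lower.

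Over the 27 shared time points as a whole, 15 of the 32 genes were lower in GCSF than in IL3 and 2 were higher, against 15.6% and 9.55% of all genes. The differences were largest for Hilpda (log2 fold change -2.18 ± 0.03 SE, adjusted p = 3e-93), Adm (-1.82 ± 0.09), Ankrd37 (-1.32 ± 0.06) and P4ha2 (-1.31 ± 0.03). P4ha1, Aldoc (aldolase C), Slc2a1, Fam162a (a mitochondrial pro-apoptotic gene) and Car9, which regulates pH outside the cell, followed at -1.23 to -1.02. Bnip3, at -0.90 ± 0.03, and Vegfa, at -0.83 ± 0.03, were also lower, while Egln1 (-0.52 ± 0.03) and Egln3 (-0.52 ± 0.03) stayed under the fold threshold. Hif1a went the other way, at 0.31 ± 0.01, and was not called. Pfkfb4 (0.91 ± 0.02) and Slc16a3 (0.75 ± 0.04) were higher in GCSF.

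From 32h to 160h each time point was compared with the mean of the points 8 h before and 8 h after it (bar chart of called genes). In both cytokines the members were called lower at only a few of these 17 time points: 48h, 72h, 96h, 120h and 144h in IL3, and 72h, 96h, 120h and 144h in GCSF. The largest counts were at 96h, with 20 of 32 in IL3 and 20 in GCSF, and at 72h in GCSF, with 19. The same comparisons called 8.17%, 3.53% and 1.19% of all genes lower. At 96h in IL3 a further 9.36% of all genes were called higher. Libraries from IL3-OHT 96h and 144h, which the study left out of its own analysis, are kept here. The study judged them outlying, as all their replicates looked unlike the time points before and after. It proposes that transient effects of OHT could be the reason, which was not tested here.

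**Figure D3:**
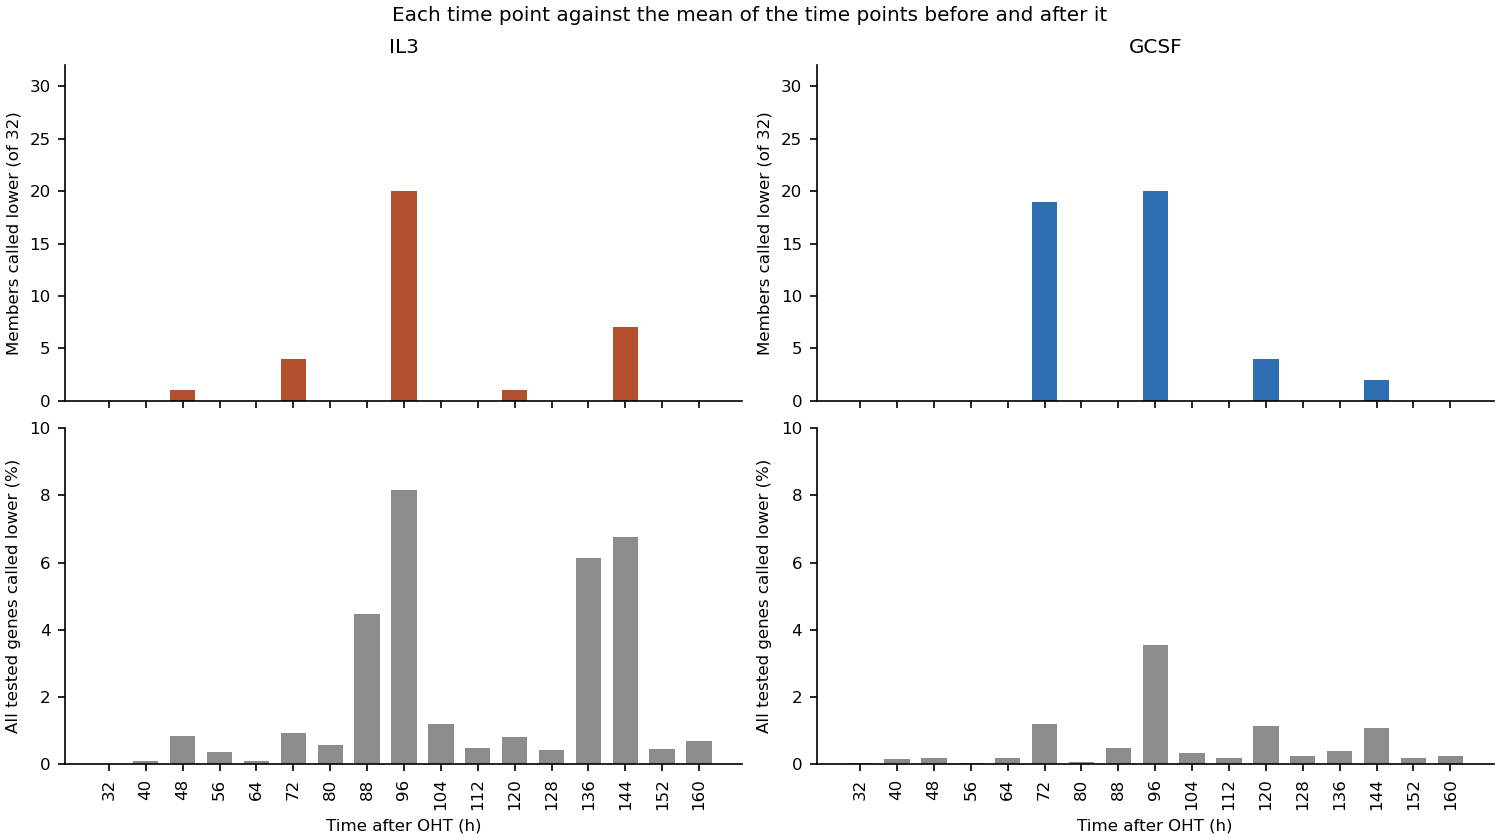
Number of the 32 genes called lower (top) and percent of all 17439 tested genes called lower (bottom) at each time point from 32h to 160h, against the mean of the time points before and after it, in IL3 (left) and GCSF (right). The tallest bars for the 32 genes stand at 96h in both cytokines and at 72h in GCSF, with 20, 20 and 19 genes. Shorter bars stand at 48h, 72h, 120h and 144h in IL3 and at 120h and 144h in GCSF.

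At 96h most of the mitochondrial genes fell in both cytokines. In IL3, Bnip3 had 8957, 8003 and 8921 counts at 96h, while the libraries of 88h held 20884, 21262 and 19412 and those of 104h 18532, 21196 and 20923. In GCSF it had 11419, 10405 and 10920.2, then 5856 and 3680.2 in the 2 libraries of 96h, and 11882, 11496 and 15551 at 104h. Every 96h library of Bnip3 was below every library of its neighbours in both cytokines. The log2 fold changes were -1.24 ± 0.15 (SE, adjusted p = 3.9e-12) in IL3 and -1.35 ± 0.18 (SE, adjusted p = 3.9e-10) in GCSF. The third GCSF 104h library stood above the others for Bnip3 and held the most reads of the series (33147945). Against GCSF 88h alone, 19 of the 32 members were called lower at GCSF 96h (4.05% of all genes). In IL3 and GCSF, the log2 fold changes were -1.48 ± 0.10 and -1.42 ± 0.11 for Fam162a, -1.05 ± 0.09 and -0.96 ± 0.10 for the BNIP3 relative Bnip3l, and -0.93 ± 0.08 and -0.88 ± 0.10 for Higd1a, a partner of the respiratory chain. Pdk1 and the adenylate kinase Ak4 fell in GCSF (-1.17 ± 0.12 and -0.94 ± 0.11) and were not called in IL3 (-0.58 ± 0.10 and -0.23 ± 0.10).

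The oxygen sensors fell with them. Egln1 had 8619, 7700.0 and 8056 counts at 96h in IL3, against 16416, 14852 and 15442 at 88h and 22099.6, 17282 and 16982 at 104h, a log2 fold change of -1.07 ± 0.11 (SE, adjusted p = 2.4e-15). In GCSF it had 5414 and 4246 at 96h, against 10771, 10952 and 11125 at 88h and 11554, 13344 and 11039 at 104h (log2 fold change -1.25 ± 0.13 SE, adjusted p = 2.6e-14). The 96h libraries were the lowest in both. Egln3 fell too, at -0.71 ± 0.11 in IL3 and -1.13 ± 0.13 in GCSF. Hif1a had 3012, 3018 and 3028 counts at 96h in IL3 and 4241 and 4019.6 in GCSF, with log2 fold changes of -0.01 ± 0.06 (SE, adjusted p = 0.9) and 0.04 ± 0.07 (SE, adjusted p = 0.78), and its 96h libraries lay among those of the neighbours.

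Of the secreted factors, Vegfa fell from 36468, 32481 and 31939 at 88h in IL3 to 18946, 17179.7 and 17305 at 96h and stood at 37512, 35569 and 34386 at 104h (log2 fold change -0.96 ± 0.11 SE, adjusted p = 4.7e-13). In GCSF the 96h libraries held 9446 and 7158, where those of 88h held 15940.2, 17239 and 17678 and those of 104h held 17605, 19639 and 14501 (log2 fold change -1.05 ± 0.13 SE, adjusted p = 6e-11). Both cytokines gave 96h values below all neighbouring libraries. Adm and Stc2, the secreted stanniocalcin 2, were not called (-0.76 ± 0.38 and -0.35 ± 0.09 in IL3, -1.0 ± 0.44 and -0.50 ± 0.11 in GCSF).

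For glucose uptake and handling, Slc2a1 had 17273, 17163 and 17037 counts at 96h in IL3 and 7963 and 5609.6 in GCSF, below all libraries of 88h and 104h in both, with log2 fold changes of -0.66 ± 0.14 (SE, adjusted p = 2.2e-05) and -0.99 ± 0.16 (SE, adjusted p = 3.3e-07). Gbe1, the glycogen branching enzyme, fell most in IL3, from 7871, 8085 and 7560.3 at 88h to 2567, 2339 and 2267 at 96h (log2 fold change -1.70 ± 0.09 SE, adjusted p = 9.6e-36), and was at -0.83 ± 0.10 in GCSF. Aldoc fell in both, at -1.51 ± 0.14 and -1.05 ± 0.17. Pfkfb4 fell in IL3 (-0.71 ± 0.08). Pfkfb3 (-0.09 and 0.25), Pgm2 (-0.40 and -0.13) and Slc16a3 (0.41 and 0.01) were not called in either cytokine.

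The genes for pH, collagen and lipid handling all fell at 96h in both. P4ha2 had 1564, 1396 and 1579.5 counts at 96h in IL3, against 3572, 3360.1 and 3195 at 88h, and 663 and 418 in GCSF, against 1529.5, 1514 and 1559.9. Its log2 fold changes were -1.23 ± 0.14 and -1.62 ± 0.16, those of Car9 were -0.84 ± 0.13 and -1.49 ± 0.15, those of P4ha1 -0.98 ± 0.09 and -1.12 ± 0.11, and those of Hilpda -0.65 ± 0.15 and -0.98 ± 0.17. Ndrg1 (-1.13 ± 0.11 and -1.01 ± 0.13) and Ddit4 (-0.80 ± 0.14 and -0.88 ± 0.16) fell as well. Of the regulators, Rora, a nuclear receptor with few counts (24.6, 24.4 and 33.2 counts at 96h in IL3), fell in both (-1.01 ± 0.24 and -0.74 ± 0.27). Mxi1, an antagonist of MYC, was called in IL3 (-0.89 ± 0.06) and not in GCSF (-0.34 ± 0.07), and the difference of -0.55 ± 0.10 (SE, adjusted p = 1.2e-06) stayed under the fold threshold. Kdm3a, a histone H3K9 demethylase (-0.40 and -0.41), and Bhlhe40 (-0.29 and -0.43) were not called in either. Narf was called in IL3 (-0.78 ± 0.07) and Ankrd37 in GCSF (-0.86 ± 0.28). In GCSF the call of Rora was lost without the first replicates, at -0.99, and without the second, at -0.43, and that of Ankrd37 without the second, at -0.64, and the third, at -0.82.

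**Figure D4:**
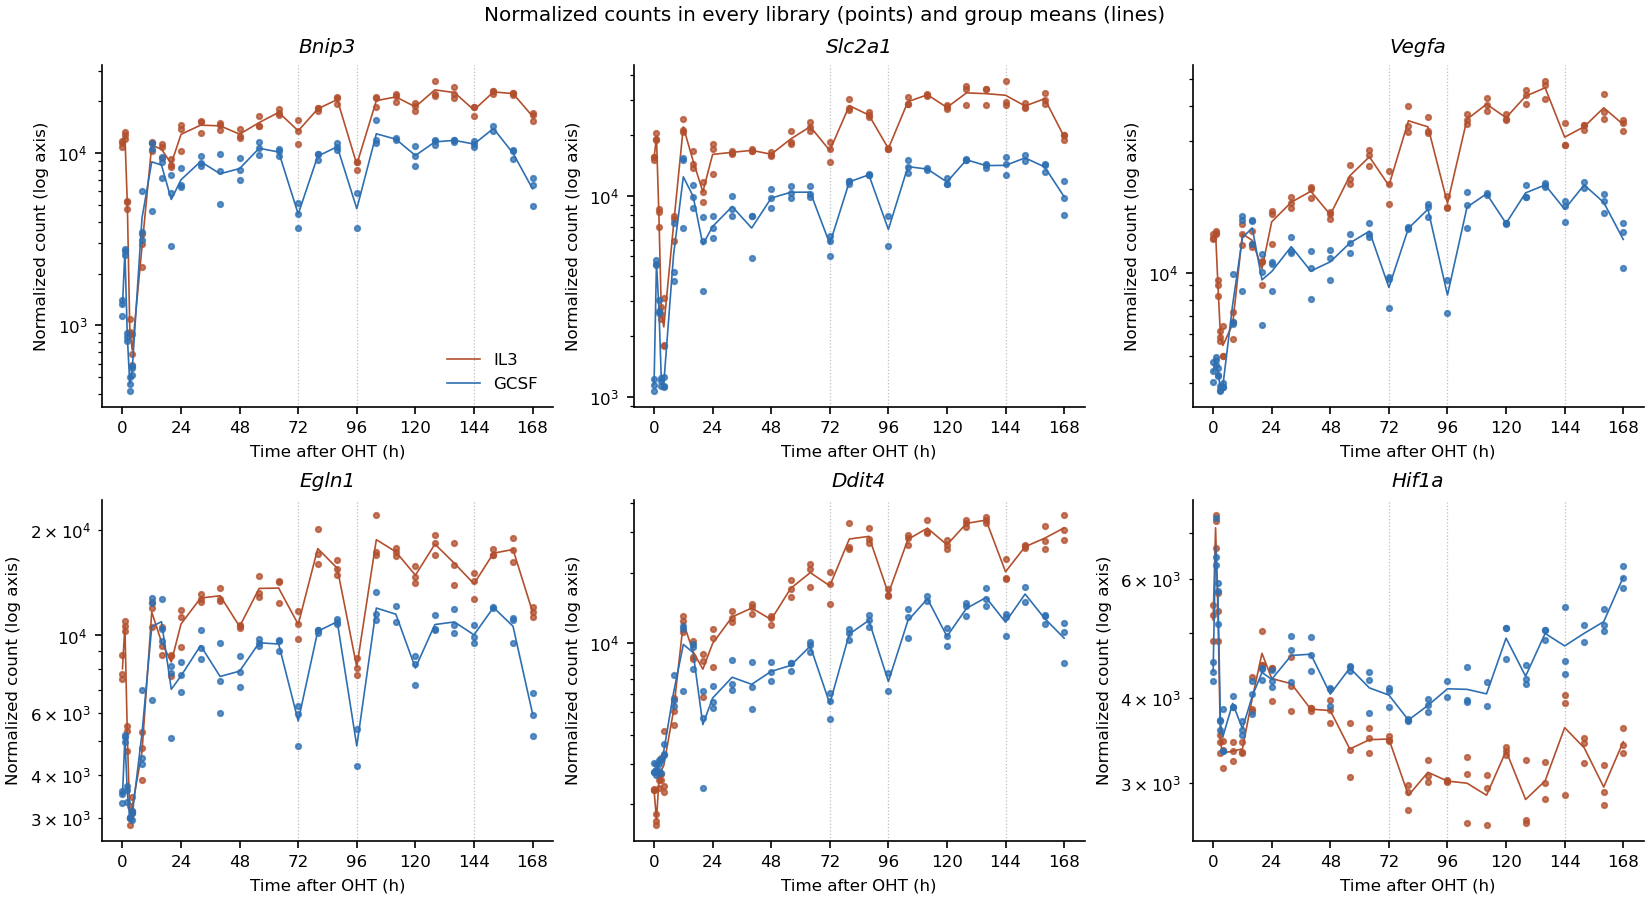
Normalized counts (log axis) of Bnip3, Slc2a1, Vegfa, Egln1, Ddit4 and Hif1a in every library (points) and group means (lines) over time after OHT (h) in IL3 and GCSF; dotted lines mark 72h, 96h and 144h. The first 5 genes dip at 96h in both cytokines and at 72h in GCSF, and Hif1a lies at -0.01 ± 0.06 and 0.04 ± 0.07 (log2, SE) from its neighbours at 96h.

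In GCSF most of the genes were low at 72h as well. The last change of medium before 72h was at 40h, and the part of medium changes in the dips was not tested. Bnip3 had 5159, 4456 and 3695 counts at 72h, compared with 9616, 10269 and 10631 at 64h and 9845, 9858 and 9182 at 80h (log2 fold change -1.17 ± 0.15 SE, adjusted p = 1.7e-09). The Slc2a1 libraries of 72h held 6302, 5943 and 5027, where those of 64h held 11214, 10155 and 9849 and those of 80h held 11881, 11863 and 11390.1 (log2 fold change -0.94 ± 0.14 SE, adjusted p = 8e-08). All 72h libraries of both genes were below all of the neighbours. Adm changed most on the log2 scale (-1.73 ± 0.38), at low counts, with 37.6, 34.4 and 46.3 at 64h and 14.9, 13.0 and 3.86 at 72h. P4ha2 (-1.11 ± 0.14), Rora (-1.11 ± 0.24), Hilpda (-1.01 ± 0.15), Ndrg1 (-0.99 ± 0.11) and Ddit4 (-0.92 ± 0.14) followed, with Egln3 at -0.89 ± 0.11, Egln1 at -0.80 ± 0.11 and Vegfa at -0.70 ± 0.11. Hif1a was at 0.04 ± 0.06. In IL3 4 genes were called lower at 72h (0.912% of all genes), which were Rora (-0.73 ± 0.24), Ndrg1 (-0.66 ± 0.11), Gbe1 (-0.59 ± 0.09) and P4ha2 (-0.58 ± 0.14), and the median of the members was -0.37, against -0.70 in GCSF. The IL3 count went from 0 without the first replicates to 10 without the third. In GCSF, Ankrd37 and Bhlhe40 lost their calls without the second or the third replicates, and Adm and Rora without the third.

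The 3 comparisons share no library, but they are not independent. They come from the same cell line and the same limma fit. Both 96h comparisons also follow the same change of medium, and the IL3 and GCSF cells of 96h may have shared a plate. Of the 20, 20 and 19 genes called lower at IL3 96h, GCSF 96h and GCSF 72h, 14 were called at all 3: Bnip3, Bnip3l, Egln1, Egln3, Vegfa, Ndrg1, P4ha1, P4ha2, Ddit4, Higd1a, Fam162a, Slc2a1, Hilpda and Rora. That is 70.0% of each 96h set and 73.7% of the 72h set, and 0.665% of all tested genes were called lower at all 3. The 7 called at none of the 3 were Kdm3a, Pfkfb3, Slc2a3, Slc16a3, Hif1a, Stc2 and Pgm2. Slc2a3 stood at no more than 3.91 normalized counts on average at any time point, within the range of the 3-read limit.

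**Figure D5:**
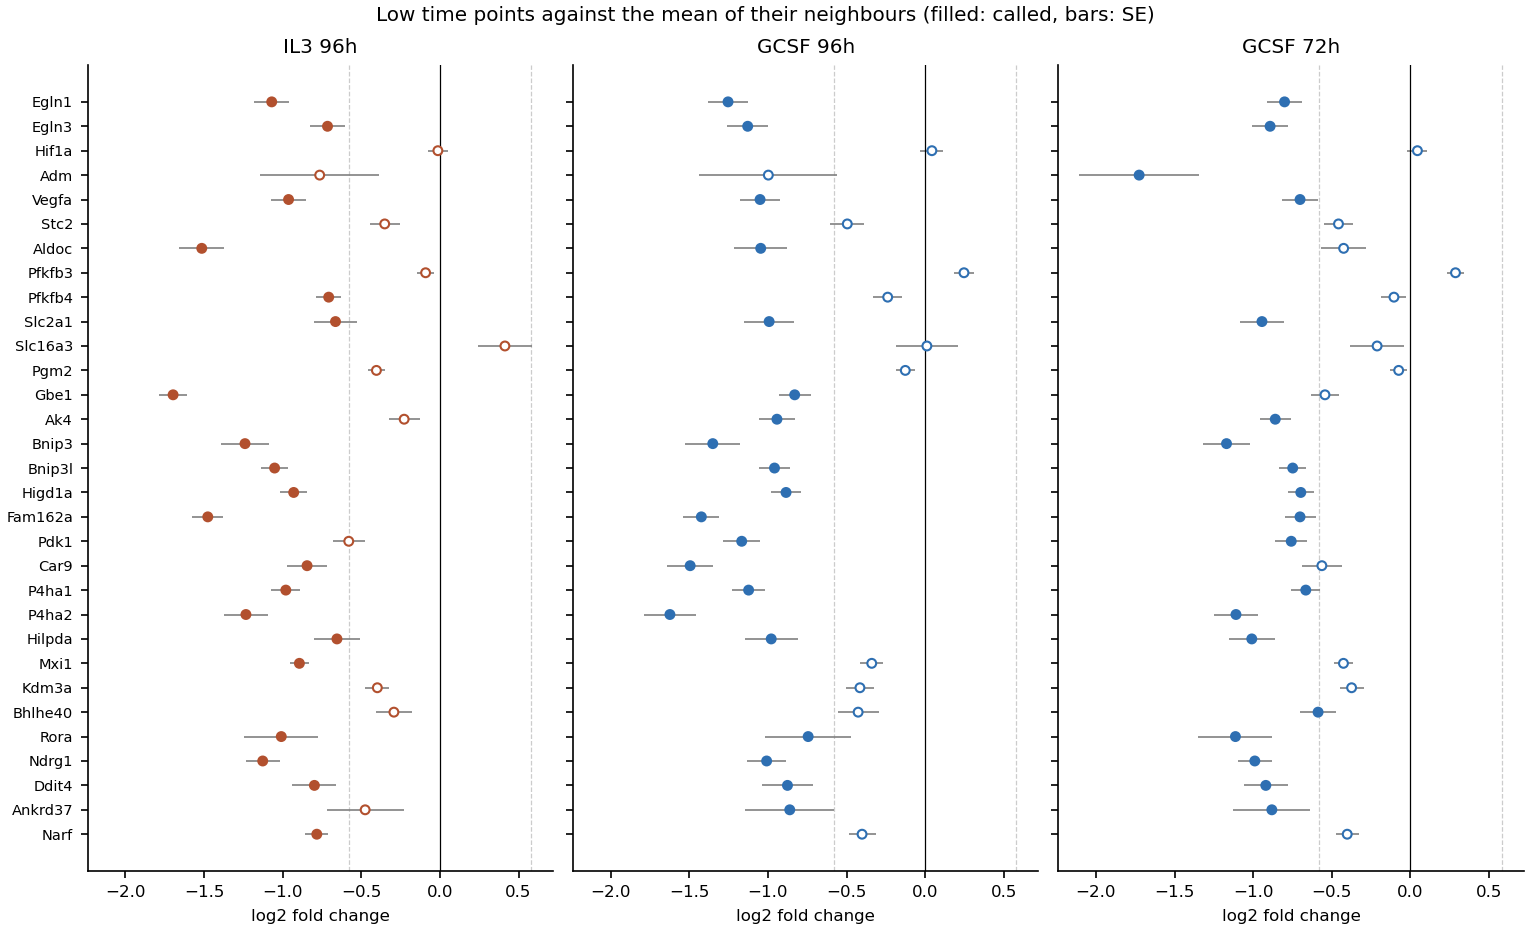
log2 fold change (horizontal axis) with its SE at IL3 96h, GCSF 96h and GCSF 72h against the mean of the neighbouring time points; filled points were called, dashed lines mark 0.58, and genes are grouped by role. Most points lie left of -0.58 in all 3 panels, and Hif1a lies at 0 within 1 SE.

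The remaining low points were shallower. At 144h 7 genes were lower in IL3 (6.76% of all genes) and 2 in GCSF (1.07%). Aldoc was lower in both, with 282, 386 and 381 counts in IL3, against 873, 887 and 875 at 136h and 658, 660.1 and 648 at 152h (log2 fold change -1.13 ± 0.14 SE, adjusted p = 2.3e-11), and -0.80 ± 0.15 in GCSF. In IL3 Narf (-0.85 ± 0.07), Gbe1 (-0.77 ± 0.09), P4ha1 (-0.75 ± 0.09), Fam162a (-0.71 ± 0.10), Pfkfb4 (-0.66 ± 0.08) and Car9 (-0.59 ± 0.13) fell too, although Pfkfb4 and Car9 lost their calls without the first replicates, and Car9 also without the second. The other GCSF gene was Car9 (-0.64 ± 0.13), whose call was lost without the second replicates. Bnip3 had 18609.9, 18494 and 16460.0 counts at 144h in IL3, below all of 21043, 24348 and 22174 at 136h and 23115, 23058 and 21965 at 152h, but its change stayed under the fold threshold (-0.34 ± 0.15, and -0.19 ± 0.16 in GCSF). Slc2a1 (0.07 ± 0.14 and -0.06 ± 0.14), Vegfa (-0.36 ± 0.11 and -0.29 ± 0.12), Egln1 (-0.24 ± 0.11 and -0.19 ± 0.12), Egln3 (0.00 ± 0.11 and -0.25 ± 0.12) and Hif1a (0.16 ± 0.06 and -0.07 ± 0.07) were not called. The third IL3 library at 144h stood apart from the other two for Slc2a1, Vegfa and Hif1a.

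At 48h only Aldoc fell in IL3 (log2 fold change -0.67 ± 0.14 SE, adjusted p = 0.00032, with 0.843% of all genes lower), and in GCSF limma called 0 members, where 0.189% of all genes were called lower, although 9 of 32 passed an unadjusted p of 0.05, and edgeR and DESeq2 called 0 as well. At 120h Rora was called in IL3 (-0.64 ± 0.24, 0.797% of all genes), and 4 genes were in GCSF (1.14%): Aldoc, P4ha2, Fam162a and Car9, at -0.78 to -0.65. The call of Rora was lost without any 1 of the 3 replicates. The 120h libraries of both cytokines carry another library name prefix than all other libraries, so that prefix and time point cannot be told apart. In the first day, GCSF 20h was lower than the mean of 16h and 24h for 6 genes (0.126% of all genes), Ankrd37 (-1.21 ± 0.24), Ddit4, Slc2a1, Bnip3, Hilpda and Bhlhe40, but the second library lay far below the others, with Bnip3 at 7433, 2878 and 5873 counts in the 3 libraries. Without the second replicates limma called 0 of these 6.

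Whether the dips differed in size between IL3 and GCSF was tested as the difference of the 2 effects. At 96h 3 genes had the smaller fall in IL3 (4.93% of all genes), namely Ak4 (log2 fold change 0.72 ± 0.15 SE, adjusted p = 7.9e-05), Car9 (0.65 ± 0.20) and Pdk1 (0.59 ± 0.16), and 1 had the larger fall there (2.83%), Gbe1 (log2 fold change -0.87 ± 0.13 SE, adjusted p = 8.8e-08). The calls of Car9 and Pdk1 were lost without the second replicates, and that of Pdk1 also without the third. For Bnip3 the difference was 0.11 ± 0.23, for Vegfa 0.09 ± 0.17, for Egln1 0.18 ± 0.17, for Egln3 0.41 ± 0.17, for Slc2a1 0.33 ± 0.21 and for Hif1a -0.06 ± 0.10, and none of these was called. At 144h Narf (-0.87 ± 0.11) and Gbe1 (-0.61 ± 0.13) fell more in IL3 (4.06% of all genes), Gbe1 only with the third replicates included. For a set of 32 genes, these counts at 96h and 144h are near the shares of all genes. At 72h 2 genes, Ak4 (0.69 ± 0.14) and Pdk1 (0.58 ± 0.14), fell more in GCSF (0.0287% of all genes), and 0 or 1 of them was called by limma when 1 replicate was left out, with Ak4 at 0.61 and Pdk1 at 0.53 without the second. At 48h limma called 0 members, with 0.700% and 0.900% of all genes called higher and lower, while 7 of 32 passed an unadjusted p of 0.05 and edgeR and DESeq2 also called 0.

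The last time point was itself low. Against the mean of 152h and 160h, 16 genes were lower at 168h in GCSF (1.47% of all genes) and 4 in IL3 (0.837%). This comparison with 152h and 160h was itself chosen once values had been seen. In GCSF, P4ha2 had 791, 527 and 453 counts at 168h, while the libraries of 160h held 1477, 1208 and 1396 and those of 152h 1712 and 1746 (log2 fold change -1.41 ± 0.15 SE, adjusted p = 1.6e-13). Egln1 had 11255, 9536 and 11083 at 160h and 6834, 5930.5 and 5149 at 168h (log2 fold change -0.93 ± 0.12 SE, adjusted p = 2.4e-10). The third 168h library was the lowest for both. Adm (-1.53 ± 0.40), Aldoc (-1.04 ± 0.15), Fam162a (-0.98 ± 0.10), Bnip3 (-0.94 ± 0.16) and Rora (-0.86 ± 0.25) were among the others, of which Adm lost its call without the second replicates and Rora without the third. Ndrg1, at -0.99 ± 0.11 in GCSF and -0.91 ± 0.11 in IL3, was lower in both cytokines, as were Higd1a, P4ha2 and Gbe1. The GCSF count was 11 without the third replicates, where Ak4, Slc2a1, Pdk1 and Hilpda also lost their calls. The IL3 count was 2 without the first replicates and 7 without the third. Comparisons that end at 168h are therefore given with 160h beside them, a comparison chosen after the values had been seen.

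From the start of each course, 13 genes were higher at 168h in IL3 (10.2% of all genes) and 1 was lower (15.1%), and at 160h 20 were higher (12.1%) and 1 was lower (17.3%). The highest rises in IL3 at 168h were those of Ankrd37 (log2 fold change 5.24 ± 0.28 SE, adjusted p = 7.7e-35), Ddit4 (log2 fold change 3.75 ± 0.16 SE, adjusted p = 1.3e-43), Adm (1.86 ± 0.44), Vegfa (1.35 ± 0.13), Mxi1 (1.19 ± 0.07), Egln3 (1.19 ± 0.13), Narf (1.01 ± 0.09) and Aldoc (0.86 ± 0.17). The gene that was lower at both was Hif1a, with 4859.6, 5303 and 5484 counts in undifferentiated cells and 3325, 3619 and 3409 at 168h (log2 fold change -0.59 ± 0.07 SE, adjusted p = 3.5e-12), and without the third replicates its change of -0.55 missed the fold threshold. Bnip3, Slc2a1 and Egln1 were not called at 168h (0.52 ± 0.18, 0.35 ± 0.16 and 0.54 ± 0.13) and were at 160h (0.96 ± 0.18, 0.98 ± 0.16 and 1.13 ± 0.13).

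In GCSF 21 genes were higher at 168h than in GCSF 0h (12.1% of all genes) and 1, Slc16a3 (-1.17 ± 0.20), was lower (12.6%). At 160h 26 were higher (13.1%) and 2 were lower (13.9%), Slc16a3 and Pfkfb3. Ankrd37 rose from 8.32, 9.74 and 10.3 to 1140.2, 1349.6 and 794 counts at 168h (log2 fold change 6.68 ± 0.28 SE, adjusted p = 2.1e-44) and Ndrg1 from 693, 649.9 and 546 to 8349, 7119.7 and 6985 (log2 fold change 3.57 ± 0.13 SE, adjusted p = 2.2e-52). Slc2a1 (3.09 ± 0.16), Adm (2.88 ± 0.44), Bnip3 (2.25 ± 0.18), Bhlhe40 (2.04 ± 0.13), Ddit4 (1.86 ± 0.16) and Aldoc (1.73 ± 0.17) followed, and Egln3, Vegfa and Egln1 rose by 1.65 ± 0.13, 1.57 ± 0.13 and 0.77 ± 0.13. Hif1a was at 0.46 ± 0.07 and not called.

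Set against undifferentiated cells, GCSF 168h had 13 genes lower (23.5% of all genes) and 5 higher (15.5%), and GCSF 160h had 6 lower (23.9%) and 8 higher (14.9%). Hilpda (log2 fold change -2.63 ± 0.17 SE, adjusted p = 3.1e-29), P4ha2 (-2.58 ± 0.16), Car9 (-1.69 ± 0.15), P4ha1 (-1.60 ± 0.11), Fam162a (-1.47 ± 0.11), Adm (-1.37 ± 0.44), Rora (-1.20 ± 0.27) and Bhlhe40 (-0.96 ± 0.13) were furthest below, and Adm lost its call without the second replicates. Ankrd37 (3.52 ± 0.28), Ddit4 (2.15 ± 0.16), Pfkfb4, Narf and Kdm3a were above. Bnip3 (-0.89 ± 0.18) and Slc2a1 (-0.66 ± 0.16) were lower at 168h (Slc2a1 not without the third replicates), and at 160h they were not called (-0.19 ± 0.18 and -0.15 ± 0.16). Vegfa was at -0.05 ± 0.13, Egln1 at -0.43 ± 0.13, Egln3 at 0.38 ± 0.13 and Hif1a at 0.21 ± 0.07, none of them called. These comparisons share the undifferentiated or the GCSF 0h libraries with each other and with the pre-treatment comparison.

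The OHT effect at 168h, each cytokine against its own start, differed between GCSF and IL3 for 12 genes with the larger value in GCSF (14.5% of all genes) and 5 with the smaller (11.3%). Slc2a1 (log2 fold change 2.74 ± 0.23 SE, adjusted p = 1.2e-20), Ndrg1 (2.73 ± 0.18), Bhlhe40 (2.29 ± 0.18), Rora (1.81 ± 0.38), Bnip3 (1.73 ± 0.25), P4ha1 (1.70 ± 0.15), Ankrd37 (1.44 ± 0.40), Hif1a (1.05 ± 0.10) and Hilpda (1.04 ± 0.24) had the larger effect in GCSF by 1 or more on the log2 scale. Ddit4 (log2 fold change -1.89 ± 0.23 SE, adjusted p = 3e-12) had the larger effect in IL3. Egln1 (0.23 ± 0.18), Egln3 (0.46 ± 0.19) and Vegfa (0.22 ± 0.18) were not called. With 160h in place of 168h the difference was called for 19 genes, 14 with the larger value in GCSF and 5 with the smaller (26.2% of all genes in either direction). There it was 2.63 for Slc2a1, 2.61 for Ndrg1, 2.64 for Bhlhe40, 2.58 for Rora, 1.99 for Bnip3, 1.62 for P4ha1, 1.51 for Ankrd37, 1.06 for Hif1a, 1.33 for Hilpda and -1.44 for Ddit4. The starting levels differ, as the pre-treatment comparison shows, and enter this difference.

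The lists of other genes were read beside the shares of all genes called at these points, which were 8.17% lower and 9.36% higher at IL3 96h, 3.53% and 1.12% at GCSF 96h, and 1.19% and 0.201% at GCSF 72h. Of 14 genes listed for the machinery around HIF (HIF-alpha relatives and partners, co-activators, VHL and its complex, and the hydroxylases Egln2 and Hif1an), 1 fell and 1 rose at 96h in IL3, 1 fell at 96h in GCSF and 1 at 72h in GCSF. The gene that fell in IL3 was Arnt, the partner of HIF-alpha (-0.67 ± 0.03), which fell again at 144h (-0.81 ± 0.03). The one that rose there was its relative Arnt2 (0.59 ± 0.21). In GCSF the gene that fell was Hif3a, a HIF-alpha relative, at 96h (-0.92 ± 0.17) and 72h (-0.70 ± 0.15). Between 4h and 12h Hif3a (1.23 ± 0.17 in IL3 and 1.58 ± 0.17 in GCSF) and Vhl (0.63 ± 0.08 and 0.62 ± 0.08) rose and Arnt2 fell (-1.34 ± 0.24 and -1.19 ± 0.24).

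A list of 24 other hypoxia targets, 21 of them tested, had 9 lower at 96h in IL3 and 2 higher, 8 lower at 96h in GCSF and 8 lower at 72h in GCSF. Ero1l, an endoplasmic reticulum oxidase, led in IL3 (-1.92 ± 0.11), with Gys1, glycogen synthase, at -1.38 ± 0.12. Gys1 was at -1.22 ± 0.13 at 96h and -0.99 ± 0.12 at 72h in GCSF. Of the 16 core glycolysis genes 10, 12 and 5 fell at IL3 96h, GCSF 96h and GCSF 72h, with medians of -0.69, -0.86 and -0.46, beside -0.77, -0.91 and -0.70 for the 32 genes and 0.0, 0.0 and 0.00 for all genes. Of 12 genes of ATF4 and amino acid stress, 3 fell and 1 rose at IL3 96h, and 1 fell and 1 rose at GCSF 96h. The gene that rose in both was the cystine transporter Slc7a11 (1.76 ± 0.19 and 1.09 ± 0.21). Of 11 immediate early and heat shock genes, 2 fell and 3 rose at IL3 96h, 5 fell at GCSF 96h, and 1 fell and 2 rose at GCSF 72h. Among them Fosb was at 1.98 ± 0.16 at IL3 96h and Egr1 at -1.01 ± 0.18 at GCSF 96h.

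Marker genes of cell types were called at the same points too. Of 9 neutrophil genes, Mpo was lower at IL3 96h (-0.93 ± 0.09). Of 7 tested macrophage and monocyte genes, F13a1 was lower at 96h in both cytokines (-0.71 ± 0.10 and -0.85 ± 0.12) and Adgre1 was higher at GCSF 96h (1.05 ± 0.24). The summed neutrophil level was 327746 to 337561 normalized counts at IL3 96h and 805337 to 828789 at GCSF 96h, against 376689 to 404881 and 781387 to 829389 at 88h and 324000 to 332156 and 732044 to 892320 at 104h. The lists for mast cells and basophils, erythroid cells and lymphoid cells held 3, 1 and 1 tested genes, of which Ms4a2 rose (0.94 ± 0.34) and Nkg7 fell (-1.02 ± 0.28) at IL3 96h and Klf1 fell at GCSF 96h (-0.92 ± 0.29) and 72h (-0.89 ± 0.25). Of 10 cell cycle genes, 3 were higher at IL3 96h, led by Mcm2 (1.33 ± 0.07). The part of these genes in the dips was not tested, and fewer cells of a type and less RNA per cell cannot be told apart in bulk libraries. Libraries of 96h held 20587556 to 20871972 reads in IL3 and 20603211 to 21476650 in GCSF, inside the range of the whole series.

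Outside the set, the 10 genes whose group means followed the mean of the 32 most closely were Selenbp1, Pfkp, Me1, Ostf1, Slc30a9, Adm2, Ldha, Lancl1, Parp16 and Nampt, with Pearson's r from 0.98 to 0.96 over 56 group means. This is a description over time points of 1 cell line that share plates and medium changes. Pfkp and Ldha are enzymes of the core glycolysis list.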

How the data were processed

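RNA-seq libraries of PUER cells were read from a deposited table of normalized read counts. Per the labels and the study's methods, the authors quantified reads with Salmon on GRCm38 and divided counts by DESeq2 size factors, which makes the values a normalized signal, not raw counts; the step from transcripts to genes is not given in the sources used here. Every value was a whole number of reads times 1 step per library (100% within 0.01 of a read), so that reads were recovered for count tests.

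Here limma 3.58.1 in R 4.3.3 was fitted to log2(normalized count + 1) of all 165 libraries in 56 groups, on 17439 genes with at least 5 in 1 library, with a trend in the prior variance and Benjamini-Hochberg adjustment over all tested genes in each comparison. Fold changes are on this scale, which understates changes of low genes. Calls needed an adjusted p under 0.05 and a log2 fold change over 0.58. On simulated counts the fit recovered 77 of 100 genes changed 2-fold and 100 of 100 changed 3-fold at IL3 96h. It recovered 58 and 99 at GCSF 96h, and 53 and 96 in the pre-treatment comparison. Of 17239 unchanged genes it called 13, 17 and 43 in these comparisons. The changed genes were drawn only from those with higher mean counts, with 1 fixed dispersion and no plate effect. These rates therefore do not cover low genes such as Adm, Rora and Slc2a3, or shifts of whole plates.

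Alternatives were edgeR 4.0.16, DESeq2 1.42.0, pseudocounts of 0.5 and 5, no filter, a mean of at least 10, upper-quartile scaling, each replicate number left out, a replicate block, other neighbouring time points and the omission of IL3-OHT 96h and 144h. The members, gene lists and comparisons were chosen with earlier results of these data known, and the comparisons at 4h, 12h, 20h, 72h, 120h and 160h were chosen once values had been seen. For each comparison, up to 8 called members per direction with the largest change were named, together with Hif1a, Egln1, Egln3, Vegfa, Bnip3 and Slc2a1, and up to 3 genes of each other list. A gene of these other lists is not reported here. Differences between the cytokines were named from a log2 value of 1, and smaller ones were named where 5 or fewer were called. The limit of 3 reads covers counting error only, and SEs are those of limma, from the spread between libraries.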

Additional observations from a re-analysis of the deposited data

Results flagged for a closer look

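The results listed here differed between the 2 cytokines by a test of the difference itself. At 96h against its neighbours, the fall differed for 4 genes. Ak4, Car9 and Pdk1 fell less in IL3 (4.93% of all genes), and Gbe1 fell more there (2.83%). At 144h it differed for 2 genes, Narf and Gbe1 (4.06%), and at 72h for 2, Ak4 and Pdk1 (0.0287%). The calls of Car9 and Pdk1 at 96h, Gbe1 at 144h, and Ak4 and Pdk1 at 72h were each lost without at least 1 of the replicate numbers. At 4h after OHT, the change from the start differed for 24 genes, all with the lower value in IL3 (9.44%), of which Car9 and Rora lost their calls without the second replicates and P4ha2 without the third.

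The OHT effect differed for 17 genes at 168h (14.5% of all genes with the larger value in GCSF and 11.3% with the smaller) and for 19 at 160h (26.2% in either direction). The differences at 168h, GCSF minus IL3 on the log2 scale, were 2.74 for Slc2a1, 2.73 for Ndrg1, 2.29 for Bhlhe40, 1.81 for Rora, 1.73 for Bnip3, 1.70 for P4ha1, 1.44 for Ankrd37, 1.05 for Hif1a, 1.04 for Hilpda and -1.89 for Ddit4. OHT dose, pre-treatment and cytokine cannot be told apart in these differences.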

How the results depend on the processing

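Counts of called genes, higher and lower together, kept within 1.5 times the value given for 403 of 439 alternative values, and 5319 of 5463 values of single called genes kept their direction and their side of the threshold. The 96h and 72h counts in GCSF, the 96h count in IL3, and the pre-treatment, 4h and 12h counts were among these under every alternative run for them. Over the settings that left out 1 replicate number, in which a group left with 1 library was assumed to vary like the others, the count ranged over 1 to 2 at IL3 48h, 1 to 2 at GCSF 144h, 0 to 1 for the difference at 48h, 0 to 10 at IL3 72h, 0 to 1 at IL3 120h, 0 to 1 at IL3 20h, 2 to 7 at IL3 168h against 152h and 160h, 0 to 11 at GCSF 20h and 0 to 1 for the difference at 72h. Other neighbours gave, at 48h, 0 in IL3 with 40h alone and 2 with 56h alone, and 3 in GCSF with 4 neighbours or 56h alone. At GCSF 144h, 4 neighbours or 152h alone gave 1. For the differences between cytokines, 40h alone gave 1 at 48h, 4 neighbours gave 2 at 96h and 4 at 144h, and 136h alone gave 5 at 144h. Upper-quartile scaling gave 2 at IL3 72h, 0 at IL3 120h and 2 at IL3 168h against 152h and 160h, and a pseudocount of 0.5 and no filter gave 0 at IL3 120h. The edgeR test gave 2 at IL3 72h, 0 at IL3 120h, 1 at IL3 20h, 2 at GCSF 20h and 1 for the difference at 72h, and DESeq2 gave 3 at GCSF 20h. At IL3 20h against 16h and 24h limma called 0 genes, 21 of 32 passed an unadjusted p of 0.05 and DESeq2 called 0. The largest change over time turned in sign for Slc2a3 (-2.60 in GCSF and -3.38 in IL3 with edgeR, -2.53 in IL3 with DESeq2, -1.49 to 1.61 in IL3 with 1 replicate number left out), for Adm in IL3 with a pseudocount of 5 (2.39) and for Ak4 in IL3 without 96h and 144h (-0.96); the cause was not tested. Replicate numbers did not pair the samples: the deviations of same-numbered libraries from their group means correlated at -0.073 to 0.039. With the numbers as a replicate block, 20 genes were called at IL3 96h, 20 at GCSF 96h, 19 at GCSF 72h and 25 in the pre-treatment comparison, and 14 in place of 16 at GCSF 168h against 152h and 160h. A low gene such as Slc2a3, within the limit of 3 reads, cannot be resolved at this depth.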
